A study of Mus musculus with 16 samples.

Results

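The 2 peak lists compared here show where the transduced transcription factor Foxa3 was bound in mouse embryonic fibroblasts on day 2 and on day 30. Members are all peaks of both lists, 411 of the 4839 peaks in the 8 lists of the series, with 146 peaks on day 2 and 265 on day 30. A peak was called kept when it shared at least 1 bp with a peak of the other day, lost when it was listed on day 2 only, and gained when it was listed on day 30 only. Each comparison was made with and without 2 places on build mm9, chr9:3000000-3040000 and chr2:98500000-98510000. Kept, lost and gained describe the lists: absence from a list does not show absence of binding.

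Both cultures were C57BL/6 fibroblasts prepared from embryos of 13.5 days post coitum. They were infected with Foxa3 alone, and chromatin was precipitated with an antibody to Foxa3. They differ in the labelled day, 2 or 30. The names of the 2 lists also carry different replicate numbers, and the meaning of these is not given in the sources used here. The labels give the cells as embryonic fibroblasts on both days, and refer to an induced hepatocyte (iHep) protocol for the culture. The vector, the level of Foxa3 and whether both days came from the same culture are not given in the sources used here. There was 1 ChIP sample per day, so no value carries an error between samples and the days were compared without a test. Intervals are exact 95% Clopper-Pearson intervals over peaks. They cover counting error only, and neighbouring peaks are not independent. For a count of 0, the limit given is 3 counts of the total, not the upper end of that interval, which is higher. The read depth of both samples is unknown.

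Foxa3 is one of 3 Foxa proteins, forkhead factors with a winged-helix domain that binds DNA. Foxa proteins are known as pioneer factors, which can bind their sites on DNA wrapped in nucleosomes, and Foxa3 is active in the liver and other tissues of endodermal origin. Foxa1 and Foxa2 share its DNA-binding domain in large part. Hnf4a, a nuclear receptor that regulates hepatocyte genes, binds a different sequence. In fibroblasts, a Foxa protein together with Hnf4a is known to induce hepatocyte-like cells, but in this series each factor was introduced alone.

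The lists of both days overlapped little. Of the 146 day 2 peaks, 27 were kept (18.5%, interval 12.6 to 25.8%), and these met 23 of the 265 day 30 peaks (8.68%, 5.58 to 12.7%). The remaining 119 day 2 peaks were lost and 242 day 30 peaks were gained. Most lost peaks lay in the 2 places: 92 at the start of chromosome 9 and 7 on chromosome 2. None of the 265 day 30 peaks lay there, which allows a share of up to 1.13%. Without both places the day 2 list held 47 peaks, of which 27 were kept (57.4%, 42.2 to 71.7%). Leaving the places out could only raise that share, and it left the day 30 list as it was. With a score of at least 8 required in both lists, 16 of 42 day 2 peaks were kept (38.1%), and 16 of 26 outside the places (61.5%).

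**Figure D1:**
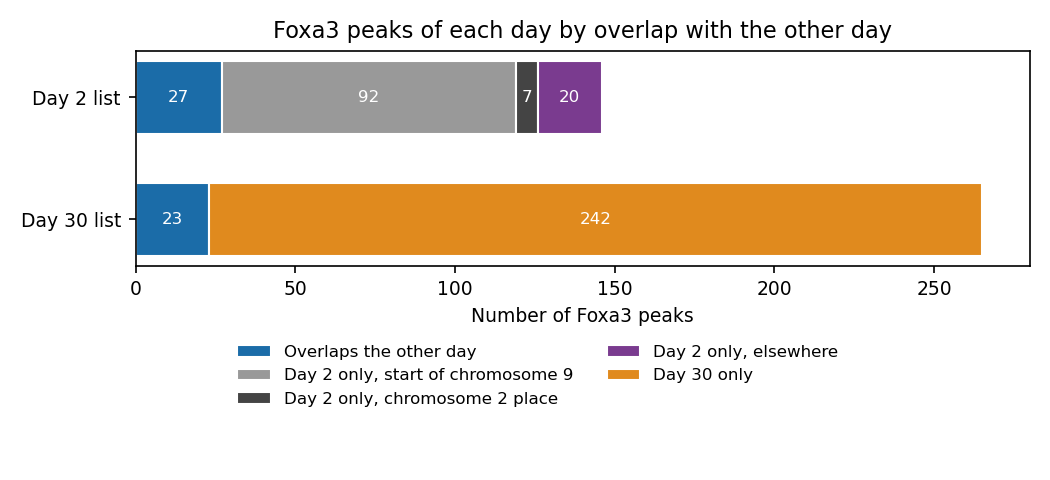
Number of Foxa3 peaks (horizontal axis) in the day 2 and day 30 lists, divided by overlap with the other day and by place. Of 146 day 2 peaks, 27 overlapped day 30 and 99 lay in the 2 places, while 242 of 265 day 30 peaks had no day 2 partner.

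Peaks of the 2 lists differed in size, which enters every overlap. Day 2 peaks were from 49 to 416 bp wide, with a median of 78.5 bp, and day 30 peaks from 175 to 900 bp, with a median of 237 bp. No day 30 peak was as narrow as the median day 2 peak. The day 2 list covered 14.7 kb in all and 5.67 kb outside the 2 places, and the day 30 list 70.2 kb. The deposited score, which is the authors' own and was read as −log10 of a p or q value, ranged from 5.10 to 22.0 on day 2 and from 5.08 to 32.8 on day 30. Scores served to order or select the peaks of each list, and are also given as medians by class and as correlations over regions. Since depth is unknown, scores of the 2 days placed side by side do not show a change in binding.

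Kept peaks stood high in the day 30 list, and less clearly so in the day 2 list. Their overlap chose them, so their values are given as a description. The 23 kept day 30 peaks were 348 bp wide by the median and the 242 gained peaks 232 bp. Median scores were 16.9 for kept and 10 for gained peaks. Of the 129 day 30 peaks scoring above the list's median, 20 were kept (15.5%), and of the 136 others 3 were (2.21%). Of the 19 day 30 peaks wider than 400 bp, 10 were kept (52.6%), and of the 246 narrower ones 13 were (5.28%). Apart from a chromosome 4 peak of 559 bp, those 10 lay in chains, runs of neighbouring peaks defined below, on chromosomes 11 and 12. The 17 kept peaks in chains had a median width of 433 bp, and the 6 others 295 bp. Scores of these 6 ranged from 12.5 to 25.7. The split by width therefore mostly describes a few groups of neighbouring sites. Width itself raises the chance of meeting a peak of the other day. On day 2, 9 of the 10 highest-scoring peaks outside the 2 places were kept. With a score of at least 10 required in both lists, 9 of 13 were kept there. Apart from a chromosome 4 peak with a score of 12.8, these kept day 2 peaks lay in the same chains on chromosomes 11 and 12. The median day 2 score was 8.3 for kept peaks, 7.69 for lost peaks outside the 2 places and 5.73 for those inside them. It was 8.25 for all day 2 peaks outside the places. The lower quartile was 6.73 for kept peaks and 6.85 for lost peaks outside the places.

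**Figure D2:**
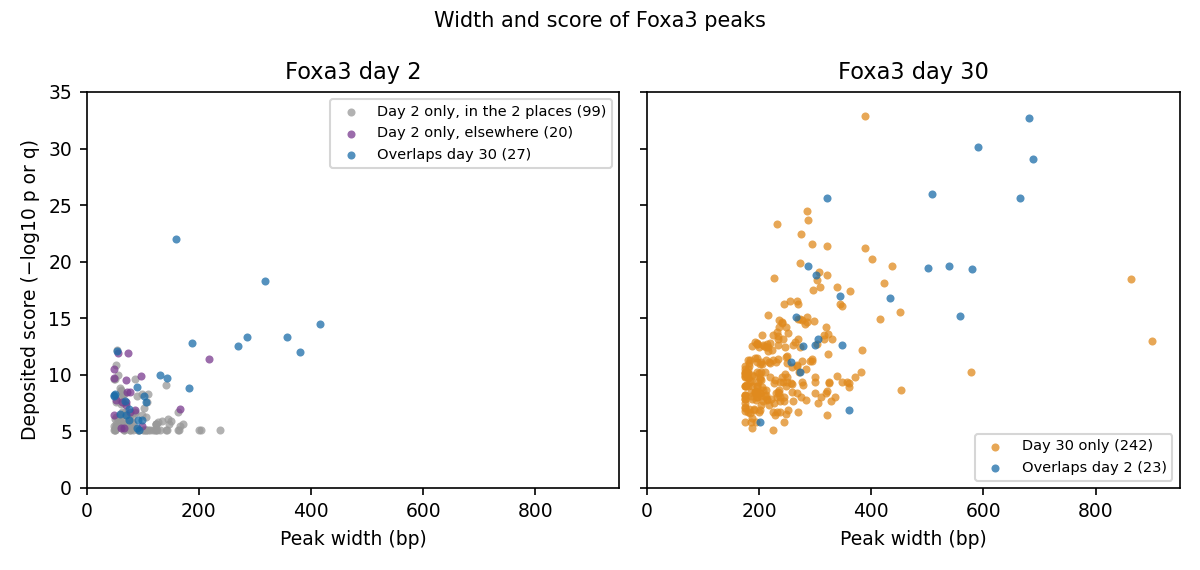
Width in bp (horizontal axis) against deposited score (vertical axis) for each Foxa3 peak, day 2 on the left and day 30 on the right, coloured by overlap with the other day. The median width on day 30 is 348 bp for kept and 232 bp for gained peaks, and the widest peak, of 900 bp, is a gained one.

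Most kept day 2 peaks lay inside the day 30 peaks they met. Kept peaks had a median width of 98 bp on day 2 and 348 bp on day 30, and a narrow peak fits more easily inside a wide one. Of 27 kept day 2 peaks, 20 lay wholly within a day 30 peak and 7 reached beyond its end. Centres were a median of 86 bp apart, from 5.5 to 309.5 bp. The closest pair, chr4:131825905-131826092 on day 2 and chr4:131825725-131826283 on day 30, had scores of 12.8 and 15.2. In 4 cases 1 day 30 peak covered 2 separate day 2 peaks. The day 2 peaks filled a median of 28.5% of their day 30 peak, from 13.6 to 74.1%. At the edge of the rule, the smallest stretch shared by a kept peak was 11 bp, and the nearest lost peaks missed a day 30 peak by 60 bp on chromosome 19 and by 72 bp on chromosome 11. Across the 23 regions, the best day 2 score and the day 30 score had a Spearman rho of 0.346 and a Pearson r of 0.516. These are descriptions over regions of the same 2 samples, many of them neighbours.

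**Figure D3:**
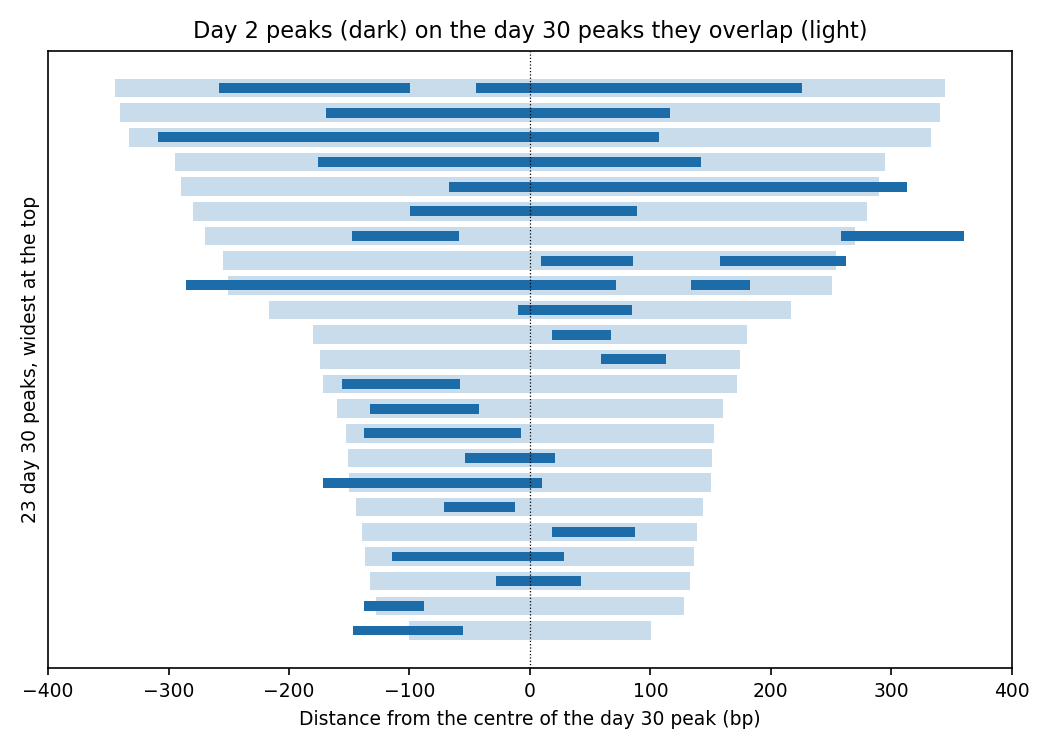
Position in bp from the centre of the day 30 peak (horizontal axis) for the 23 day 30 peaks that overlap a day 2 peak, 1 row each; light bars are day 30 peaks and dark bars the 27 day 2 peaks. Most dark bars lie within the light bar, and 4 rows hold 2 dark bars.

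Most kept peaks lay side by side in a few short stretches of the genome. Foxa3 peaks of both days were chained over gaps of up to 20 kb, and a chain was counted with 3 or more peaks. Outside the 2 places, 50 of 312 Foxa3 peaks lay in such a chain (16.0%; 36.3% with the 2 places, each of which is a chain). Among kept peaks the share was 21 of 27 on day 2 (77.8%, 57.7 to 91.4%) and 17 of 23 on day 30 (73.9%, 51.6 to 89.8%). It was 7 of 20 lost peaks outside the 2 places (35%, 15.4 to 59.2%) and 5 of 242 gained peaks (2.07%, 0.674 to 4.76%). A kept peak brings a partner of the other day and so needs only 1 more peak for a chain. When overlapping peaks of both days were counted once, the shares were 66.7% of kept day 2 peaks, 65.2% of kept day 30 peaks and 2.07% of gained peaks.

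There were 6 chains with peaks of both days, on 4 chromosomes, and together they spanned 138.2 kb. They held 28 day 2 peaks, of which 21 were kept, and 18 day 30 peaks, of which 17 were kept. The longest, at chr12:55797677-55839773, held 7 day 2 peaks and 6 day 30 peaks over 42.1 kb. Within it, 6 day 2 peaks met 5 day 30 peaks, and a lost peak of score 7.58 and a gained peak of score 9.32 lay between them. It contained both the highest-scoring day 2 peak, chr12:55811242-55811400 with a score of 22.0, and the day 30 peak ranked second, chr12:55839093-55839773 with a score of 32.7. The highest-scoring day 2 peak lay in chr12:55811156-55811844, which had a day 30 score of 29.1. The other kept day 30 peaks of this chain scored from 6.91 to 16.8. The chain at chr11:101488561-101519995 held 6 day 2 peaks and 4 day 30 peaks over 31.4 kb, all of them kept. Its day 30 peaks, 501 to 666 bp wide, were chr11:101488561-101489099 with a score of 19.6, chr11:101503072-101503572 with 19.5, chr11:101506745-101507410 with 25.7 and chr11:101519393-101519972 with 19.4. A lost day 2 peak with a score of 11.9 lay 22.3 kb before it.

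A pair of further chains lay close together on the same chromosome. At chr11:87236219-87240593, 3 day 2 peaks met 2 day 30 peaks, chr11:87236219-87236808 with a score of 30.1 and chr11:87240077-87240585 with 26.0. At chr11:87262177-87285203, 3 of 4 day 2 peaks were kept, and all 3 day 30 peaks, with scores from 10.2 to 13.2. The chain at chr1:72272853-72301990 was the one with most lost peaks. The first 3 of its 5 day 2 peaks were lost, with scores of 11.4, 9.89 and 9.68, and the last 2 were kept. The chain with the fewest peaks of these 6, at chr19:5794666-5802770, had 3 day 2 peaks and 1 day 30 peak, which met 1 of them. In 5 of the 6 chains every day 30 peak was kept, and in 2 of the 6 every day 2 peak was.

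**Figure D4:**
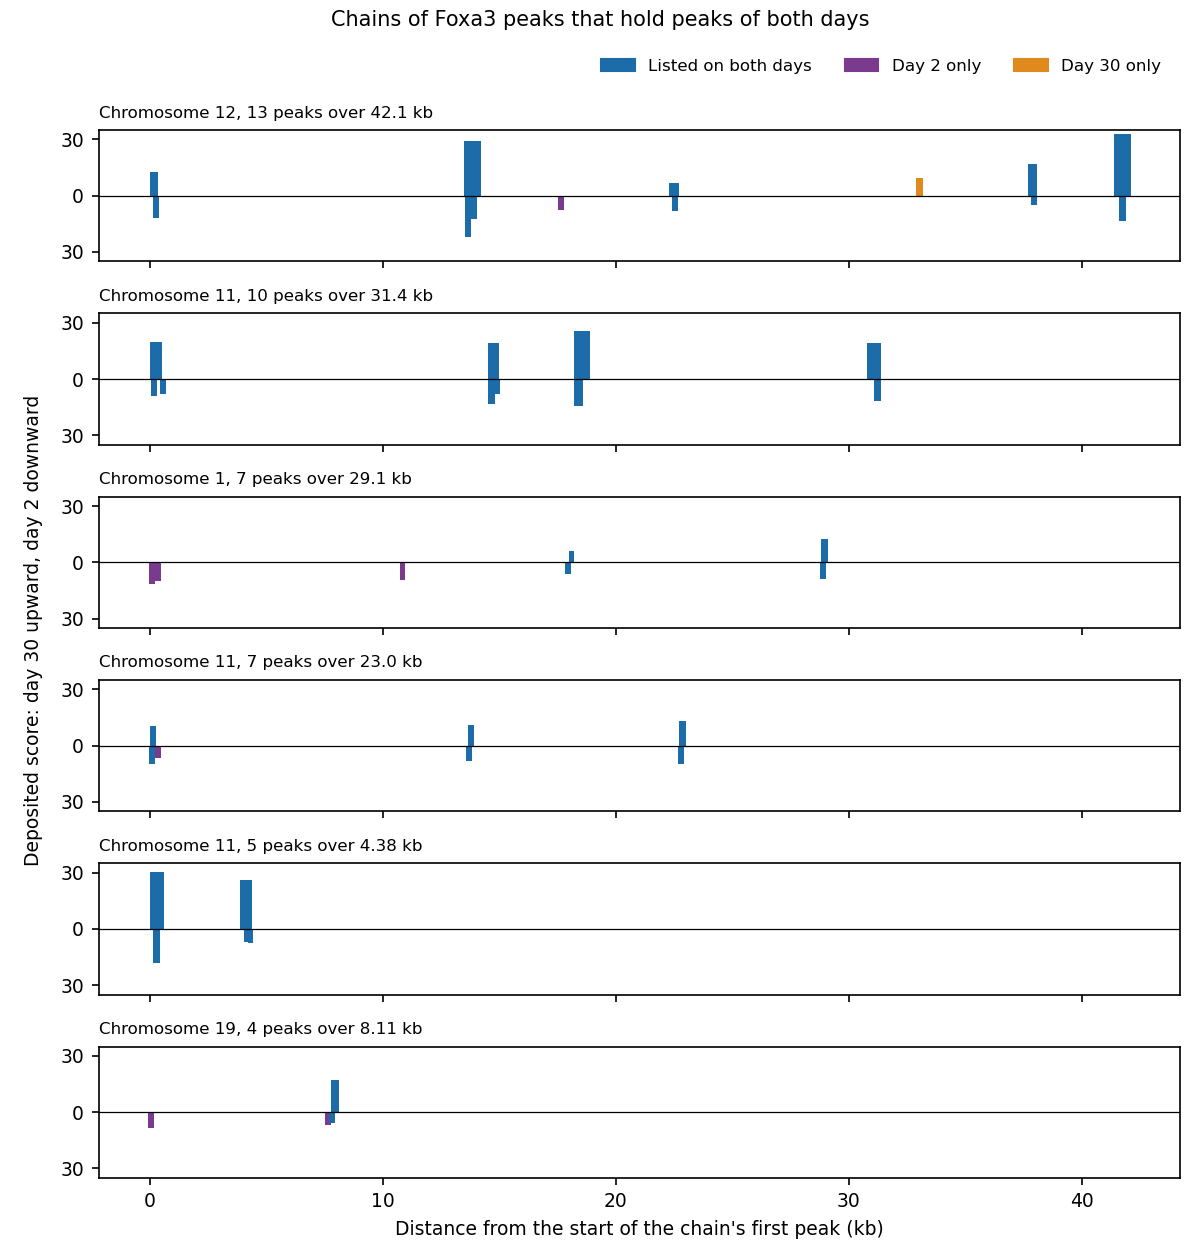
Deposited score (vertical axis, day 30 upward and day 2 downward) against distance in kb from the start of the first peak (horizontal axis) in the 6 chains of Foxa3 peaks that hold peaks of both days; bars are as wide as the peaks, or 0.25 kb where a peak is narrower. Of the day 30 peaks, 17 of 18 face a day 2 peak and 1 on chromosome 12 stands alone; of the day 2 peaks, 21 of 28 face a day 30 peak and 7 stand alone.

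These chains were chosen for holding peaks of both days, so leaving them out lowers the kept shares by construction, and what is left is given as a description. Of the 19 day 2 peaks outside these chains and the 2 places, 6 were kept (31.6%, 12.6 to 56.6%), and of the 247 day 30 peaks left, 6 were kept (2.43%, 0.897 to 5.21%). The 6 single regions were on chromosomes 4, 4, 5, 6, 7 and 8. The strongest, chr4:41577252-41577572 with a day 30 score of 25.7, met a day 2 peak of 90 bp with a score of 5.28. That peak ranked 113 in the day 2 list of 146 peaks. At chr7:122236308-122236595 the scores were 19.6 on day 30 and 6.50 on day 2, and at chr5:143668183-143668484 they were 18.8 and 6.02. The regions at chr8:45241209-45241474 and chr6:43287600-43287877 had day 30 scores of 15.1 and 12.5. The chr4:131825725-131826283 region was the widest of these, at 559 bp.

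Foxa1 day 30 was the 1 list of the 6 of other factors for which the intervals of kept and gained peaks did not overlap. Over the whole day 30 list, 68.3% of Foxa3 peaks overlapped a Foxa1 day 30 peak. Among gained peaks the share was 177 of 242 (73.1%, 67.1 to 78.6%), and among kept peaks 4 of 23 (17.4%, 4.95 to 38.8%). Among peaks with a score of at least 8 in every list, it was 143 of 199 gained peaks (71.9%) and 0 of 13 kept peaks, which allows a share of up to 23.1%. The 4 kept peaks with Foxa1 had day 2 scores of 5.28 to 7.65, so this minimum counts them as gained. The 0 follows from that change of class. Read the other way, 19 of the 84 day 30 peaks without Foxa1 were kept (22.6%, 14.2 to 33%), against 4 of the 181 with Foxa1 (2.21%, 0.605 to 5.56%). All 4 kept peaks with Foxa1 were single regions. Of the 17 kept day 30 peaks in chains none overlapped Foxa1 day 30, which allows a share of up to 17.6%. The spans of the 6 chains held no peak of either Foxa1 list, of either Foxa2 list or of Hnf4a day 2, and 5 peaks of Hnf4a day 30. Outside the chains 4 of 6 kept peaks overlapped Foxa1 day 30 (66.7%, 22.3 to 95.7%), an interval that includes the share among gained peaks.

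Counts for Foxa1 day 2 and Foxa2 were smaller, but these lists were also shorter, which limits the overlaps they can show. Foxa1 day 2 held 442 peaks, Foxa2 day 30 held 174 and Foxa2 day 2 held 23, against 3331 for Foxa1 day 30. The shares therefore do not rank the factors by their closeness to Foxa3. Of the gained peaks, 54 overlapped Foxa1 day 2 (22.3%, 17.2 to 28.1%), against 2 of 23 kept peaks (8.70%, 1.07 to 28.0%) and 21.1% of the whole day 30 list. For Foxa2 day 30 the counts were 35 gained peaks (14.5%) and 2 kept peaks (8.70%), with 14.0% over the list. For Foxa2 day 2 they were 6 gained peaks (2.48%) and 1 kept peak (4.35%), with 2.64% over the list. The intervals of kept and gained peaks overlap for these 3 lists. Hnf4a day 30 overlapped 1.89% of the whole day 30 list, with 3 gained peaks (1.24%, 0.256 to 3.58%) and 2 kept peaks (8.70%, 1.07 to 28.0%), and here too the intervals overlap. Hnf4a day 2, a list of 10 peaks, overlapped 0% of the Foxa3 peaks of either day, also outside the 2 places.

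On day 2, few Foxa3 peaks of any class met the other Foxa proteins. Foxa1 day 30 overlapped 2.74% of the day 2 list and 8.51% of its peaks outside the 2 places. These were 4 of the 27 kept peaks (14.8%, 4.19 to 33.7%) and none of the 119 lost peaks. The 99 lost peaks in the 2 places could not overlap Foxa1 day 30, which held no peak there. For the 20 lost peaks outside the places, a count of 0 allows a share of up to 15%. That limit does not set them apart from kept peaks. Foxa1 day 2 overlapped 4.79% of the list and 4.26% of the peaks outside the places, 2 of them kept. Foxa2 day 2 and Foxa2 day 30 overlapped 1 peak each, both kept, which is 0.685% of the list and 2.13% outside the places for either.

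**Figure D5:**
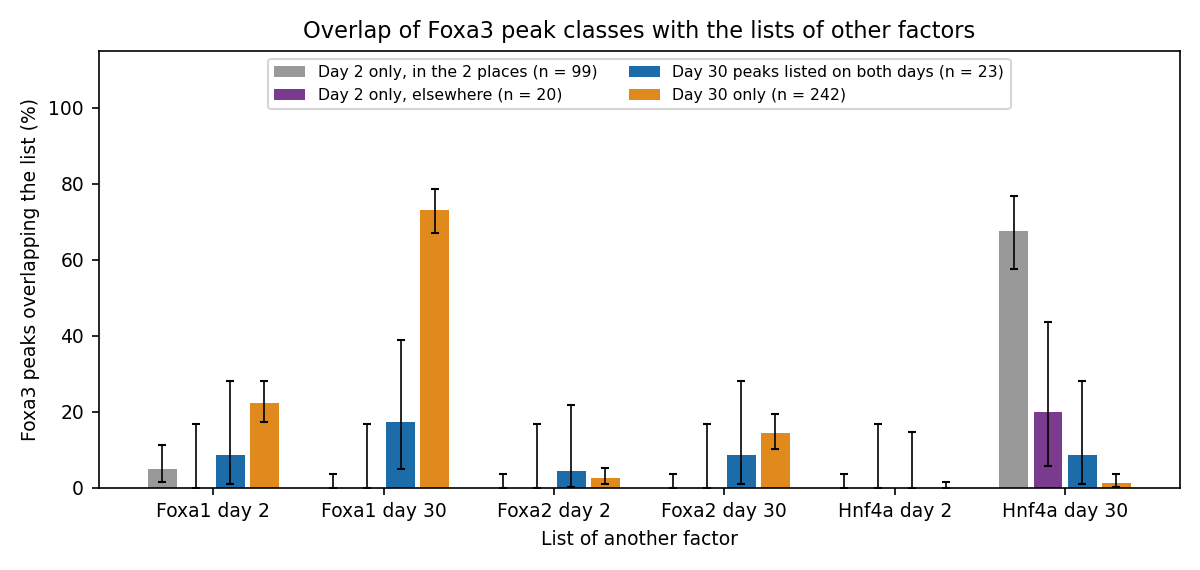
Share of Foxa3 peaks (vertical axis, %) that overlap each list of another factor (horizontal axis), by class; bars are the share and lines the exact 95% interval over peaks. Gained peaks reach 73.1% for Foxa1 day 30, and lost peaks in the 2 places reach 67.7% for Hnf4a day 30.

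Gained peaks were spread over the genome. They lay on all 19 autosomes, with 5 to 21 on each, and 1 lay on X. Of the 242, 5 lay within 1 Mb of a day 2 peak, and the nearest was 4652 bp away, in the chromosome 12 chain. By their partners in other lists, 106 were shared with Foxa1 day 30 alone (43.8%) and 34 with both Foxa1 days alone (14.0%). A further 37 were shared with Foxa2 as well as Foxa1 day 30, and 3 with Hnf4a day 30 alone. No other list held the remaining 62 (25.6%). Every gained peak that overlapped Foxa1 day 2 or either Foxa2 list also overlapped Foxa1 day 30.

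The Foxa1 day 30 peaks at Foxa3 sites mostly stood high in the Foxa1 list. Gained sites overlapped 185 Foxa1 day 30 peaks, of which 127 scored above the 75th percentile of that list (68.6%, 61.4 to 75.3%), against 25.3% of all 3331 Foxa1 day 30 peaks. At kept sites it was 4 of 4 (39.8 to 100%). The 185 at gained sites were also wider than the whole list, with a median of 223 bp against 119 bp, and a wide peak is met more easily. With the gained peaks split by score into 4 groups, overlap with Foxa1 day 30 was 80% in the highest group (48 of 60, 67.7 to 89.2%) and 64.5% in the lowest (40 of 62, 51.3 to 76.3%), with intervals that overlap. For Foxa2 day 30 these shares were 23.3% (13.4 to 36.0%) and 6.45% (1.79 to 15.7%), also with overlapping intervals. For Foxa1 day 2 they were 31.7, 26.7, 11.7 and 19.4% from the highest group to the lowest. Peaks of the highest group were also wider, with a median of 283 bp against 208 bp in the lowest.

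The 10 strongest gained peaks all overlapped Foxa1 day 30, and 8 of them overlapped another list too. Over all 242 gained peaks, 73.1% overlapped Foxa1 day 30, and 80% did in the highest of the 4 score groups. Of the 242, 34 overlapped Foxa1 day 2 as well, without Foxa2, and 37 a Foxa2 list. The strongest gained peak, chr4:56115184-56115572, had the highest score of the day 30 list, 32.8, and was also listed for Foxa1 on day 2. It was followed by chr14:100045557-100045841 with a score of 24.5, chr5:91160450-91160736 with 23.6 and chr1:87707430-87707661 with 23.4. At the last of these, Foxa1 was listed on both days and Foxa2 on day 30. The scores of the next 6 ranged from 19.8 to 22.5, at chr14:62595054-62595327, chr9:61752051-61752345, chr17:48156620-48156940, chr3:116004650-116005038, chr9:61656375-61656775 and chr6:36769633-36769904. None of the 10 was wider than 401 bp. For 3 of them, on chromosomes 14 and 17, the day 2 list held no peak on the chromosome, and for the others the nearest day 2 peak was at least 2.02 Mb away. The gained peak next in score, chr13:23673307-23673743 with 19.6, overlapped no other list.

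The 3 widest gained peaks lay in a chain of gained peaks that overlapped no other list. At chr10:24315196-24319679, 4 day 30 peaks of 863, 900, 305 and 577 bp stood within 4.48 kb, with scores of 18.5, 13.0, 7.49 and 10.3. This was the one chain without a day 2 peak. The nearest day 2 peak was 15.7 Mb away. Between the 65 gained peaks without Foxa1 day 30 and the 177 with it, medians were 235 bp against 229 bp for width, and 9.32 against 10.3 for score.

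Some Foxa3 sites were shared widely among the Foxa proteins. Overlapping peaks of the 8 lists were merged into regions, of which 381 held Foxa3. Of these, 265 held Foxa3 day 30 (69.6%) and 139 held Foxa3 day 2 (36.5%). In 27 regions at least 4 lists met, Foxa3 among them: all 27 held Foxa3 day 30, 3 held Foxa3 day 2 and none held Hnf4a. The 3 with Foxa3 day 2 were the kept single regions on chromosomes 4, 7 and 8. At the chromosome 4 region, where all 6 Foxa lists met, the day 30 scores were 54.8 for Foxa1, 25.7 for Foxa3 and 12.5 for Foxa2. The day 2 scores there were 14.1 for Foxa1, 5.28 for Foxa3 and 8 for Foxa2. Depths differ by unknown amounts, so these scores show no order of binding.

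The other 24 of these regions were Foxa3 sites of day 30 alone. Foxa1 and Foxa2 were listed on both days at 3 of them, chr10:86307319-86309322, chr10:120284374-120284636 and chr13:99584964-99585212, where Foxa3 scored 14.6, 16.5 and 9.80. Foxa1 on both days with Foxa2 on day 2 was found at chr10:38704229-38704502, chr13:35561441-35561638 and chr5:91160355-91160996. At chr2:110007648-110007984 Foxa2 was listed on both days and Foxa1 on day 30. In the other 17 regions the lists were Foxa1 on both days with Foxa2 and Foxa3 on day 30, and Foxa3 scores ranged from 6.68 to 24.5. Of these 17, 3 hold gained peaks named above, on chromosomes 1, 14 and 17. A further 8 were chr11:102994184-102994497, chr13:34299941-34300354, chr13:41447721-41448001, chr14:30311772-30312209, chr17:35848391-35849101, chr17:75706459-75706793, chr3:113242467-113243030 and chr4:3733814-3735332. The rest were chr5:91970729-91971063, chr7:79553243-79553786, chr7:148662368-148662649, chr9:61187117-61187382, chr9:62939211-62939602 and 1 region on chromosome 18.

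The lost peaks of the 2 places had a different profile. Both places are known in mouse genome builds for copies of satellite repeats, tandem DNA of centromeric regions. The lists hold no sequence, so their repeat content was not examined here. At the start of chromosome 9, the 92 peaks ran from 3000028 to 3038273, covered 8.47 kb and stood a median of 386.5 bp apart by their centres. Over the whole place there were 2.3 peaks per kb. Their median score was 5.77. The 7 peaks on chromosome 2 ran from 98502420 to 98506650 with a median score of 5.31. The strongest peak of the places, chr9:3036814-3036867, had a score of 12.2, and the next 2, chr9:3002558-3002609 and chr9:3011521-3011575, had 10.9 and 9.95. All 3 were 52 to 55 bp wide and overlapped no other list.

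Hnf4a day 30 was the list that met these lost peaks. It overlapped 49.3% of all Foxa3 day 2 peaks. In the places the count was 67 of 99 (67.7%, 57.5 to 76.7%), and it was 61 of 92 on chromosome 9 and 6 of 7 on chromosome 2. Hnf4a day 30 was itself dense there, with 74 peaks that covered 8.63 kb of the chromosome 9 place (16.5% of its list) and 9 peaks in the chromosome 2 place. Over all lost peaks, inside and outside the places, 71 of 119 overlapped Hnf4a day 30 (59.7%). With a score of at least 8 required in every list, 3 of 26 lost peaks did (11.5%). Outside the places, without that score minimum, Hnf4a day 30 overlapped 5 of 47 day 2 peaks (10.6%), which were 4 of the 20 lost (20%, 5.73 to 43.7%) and 1 of the 27 kept peaks (3.70%, 0.0937 to 19%). Foxa1 day 2 overlapped 5 of the 99 peaks in the places (5.05%). It held only 4 peaks in the chromosome 9 place and 1 in the chromosome 2 place. This limits the overlaps it could show, so its share cannot be set against that of Hnf4a day 30. Foxa1 day 30, Hnf4a day 2 and both Foxa2 lists held no peak in either place. They could therefore overlap none of the 99, and no limit is given.

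The 20 peaks lost elsewhere were narrow and scattered. Their widths had a median of 70.5 bp, and 1 was wider than 200 bp. They lay on 11 chromosomes, and 7 stood within 20 kb of a day 30 peak, all in the chains described above. The 5 with the highest scores were chr11:101466209-101466282 and chr19:18807281-18807335 with 11.9 each, chr1:72272853-72273071 with 11.4, chr3:113981667-113981715 with 10.5 and chr1:72273143-72273239 with 9.89. No other list held any of the 5. None of the 20 overlapped a Foxa1 or Foxa2 list of either day, which allows a share of up to 15% for each list. The 4 that overlapped Hnf4a day 30 lay 2.43 to 9.71 Mb from the nearest Foxa3 day 30 peak.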

How the data were processed

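Each list is the deposited peak list of 1 ChIP sample, without a header, and gives a chromosome, start, end, name and score per peak. Per the submitters' processing notes, BWA 0.6.2, MACS2 2.1.0, bedtools 2.16.2 and build mm9 were used. Their role, the peak threshold and the use of the inputs are not given in the sources used here. The deposited scores have a lower limit just above 5 and were taken to be −log10 of a p or q value; the lists do not say which. Positions are printed 1-based. The 8 input samples were not analysed here.

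Groups were taken from the titles. Overlaps, chains and exact Clopper-Pearson 95% intervals were computed with Python 3.11.15, NumPy 2.4.6 and SciPy 1.17.1, and figures drawn with Matplotlib 3.10.9. The counting was tested on simulated lists. The floor of a count of 0 is 3 counts of the total. No test was made, since each day has 1 sample. The sequence and gene tables at hand were of another build, so genes, motifs and sequences were not analysed here.

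Regions named were those of both days (the 10 strongest on day 30 one by one, the rest as ranges and counts), the 5 strongest peaks lost outside and 3 inside the places, the 10 strongest gained, all chains and regions in 4 or more lists. Members, lists and rules were chosen with earlier results of these data known. Alternatives were score minimums of 8 and 10, 50% overlap, centres within 500 bp, windows of 200 bp, merging within 500 bp, equal numbers of peaks, and chain gaps of 5 and 100 kb. Leaving out chains and counting merged regions were added after seeing the data, as were the split at 400 bp, the 4 score groups and the gained peaks named for their width.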

Additional observations from a re-analysis of the deposited data

How the results depend on the processing

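Of 99 recomputed values, 67 stayed within the interval of the value they repeat (for count ratios, within 1.5 times) and 32 moved. The ratio of day 30 to day 2 peak counts, 1.82 for all peaks and 5.64 outside the 2 places, stayed above 1 throughout. For all peaks it was 5.05 at a score of at least 8, 9.47 at 10 and 4.11 with peaks within 500 bp merged, and outside the places 10.9 at 10. The share of all day 2 peaks kept was 38.1% at a score of at least 8, 60% of 15 peaks at 10 and 35.9% with merging. Outside the places it stayed between 53.2 and 69.2% under the 7 planned settings. Without the chains of both days, which lowers the kept shares by construction, the shares were 31.6% of day 2 and 2.43% of day 30 peaks, and 66.7% of kept day 30 peaks met Foxa1 day 30. The share of gained peaks in Foxa1 day 30 stayed between 70.8 and 75.6%.

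At score minimums of 8 and 10 the following shares were 0%: kept day 30 and kept day 2 peaks in Foxa1 day 30, kept and lost day 2 peaks in Foxa1 day 2, and gained peaks in Hnf4a day 30. The 4 kept peaks in Foxa1 day 30 had day 2 scores of 5.28 to 7.65, below both minimums, so they left the kept class. These settings leave 42 and 15 day 2 peaks. Lost peaks in Hnf4a day 30 were then 11.5% and 0%. With centres within 500 bp they were 84.6%, and lost peaks in Foxa1 day 2 12.8%. Kept day 2 peaks in Hnf4a day 30 were 0% at 50% overlap, and kept day 30 peaks there 0% with windows of 200 bp. With chain gaps of 5 kb, 55.6% of kept day 2, 47.8% of kept day 30 and 15% of lost peaks outside the places were in chains. At a score of at least 8, lost peaks had medians of 63.5 bp and a score of 9.34, and gained peaks a median score of 11.1. Unknown depth limits every list. No paired analysis was possible because each day has 1 ChIP sample and the meaning of the replicate numbers is not given.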
